A study of Mus musculus with 20 samples.

Results

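The odorant receptor genes of mouse chromosome 10 were examined as a set of 65 genes, each read by 1 probe set of a microarray. They were taken as the probe sets whose identifier places them on chromosome 10 and whose symbol is Olfr followed by a number, and no measured value entered the choice. They make up 65 of the 1080 odorant receptor genes measured and of 22206 probe sets for genes in all. All 65 symbols were found on chromosome 10 in the RefSeq annotation of the assembly GRCm38.p6, where 9 form a first locus, from Olfr1357 to Olfr57, and 56 form a second one, from Olfr9 to Olfr827, with none of them on the stretch between. RefSeq places 80 odorant receptor genes on this chromosome, of which 68 are coding and 12 are pseudogenes, and the 65 are all coding.

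The cells came from the olfactory mucosa of S100a5-tauGFP mice, which carry a green fluorescent protein (GFP) reporter named for S100a5, a calcium-binding protein of olfactory sensory neurons whose transcription follows their activity. Mice of both sexes, aged 7 to 12 weeks, spent 40 h alone in chambers fed with clean air at 3.1 L/min, and from 26 h on they were given 10 s pulses at intervals of 20 min. The 4 groups of 5 samples were odor GFP+, odor GFP-, vehicle GFP+ and vehicle GFP-, where the odor is named in the sample labels as an artificial cigarette smoke odor and the vehicle was filtered air. The design text of the series names bourgeonal in its place, and the sample labels were followed. Each of 10 pools held the mucosa of 3 mice, 30 mice in all, and was sorted into a GFP+ and a GFP- sample, so every mouse of every group carried the reporter and a replicate is a pool, not an animal. The number of arrays limits the precision. All values are log2 signals as deposited, and a log2 change of 1 is a doubling of signal.

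Odorant receptors are G protein-coupled receptors in the cilia of olfactory sensory neurons, where bound odorant acts through the G protein subunit Gnal and the adenylyl cyclase Adcy3 to open the cation channel formed with Cnga2. A mature neuron transcribes a single receptor gene from a single allele, so the receptor signal of a sorted fraction adds up neurons that each chose a different gene. The genes lie in clusters on many chromosomes, and close relatives in a cluster often arose by local duplication. A receptor signal in these bulk samples can be lower because fewer neurons carry the receptor or because each holds less of its RNA, and the design cannot tell these apart.

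The sort and the arrays behave as follows. The S100a5 transcript averaged 16.91 ± 0.29 in odor GFP+ and 14.76 ± 0.66 in odor GFP- samples (SD, n = 5 each), and its within-pool change was 2.15 (SE 0.36, limma adjusted p = 0.00131). Vehicle GFP+ samples averaged 16.60 ± 0.32 and vehicle GFP- samples 15.30 ± 0.68 (SD, n = 5 each). In vehicle pools 1 to 5 it had 16.36, 17.08, 16.64, 16.25 and 16.66 in GFP+ samples and 16.07, 14.53, 14.69, 15.82 and 15.38 in GFP- samples. The fractions of vehicle pools 1 and 4 thus lay close together. The change of 1.30 in vehicle pools (SE 0.36, limma adjusted p = 0.0368) lay near the threshold, and the call was lost under several settings, with an adjusted p of 0.158 without vehicle replicate 3. Of the markers of odorant transduction and receptor trafficking, 0 of 16 passed the test in either condition, at median log2 changes of 0.42 in odor pools and 0.50 in vehicle pools. Immune cell markers were lower in GFP+ cells for 13 of 16 in odor pools and 14 of 16 in vehicle pools, and their log2 summed signal was 10.26 to 10.47 in odor GFP+ and 18.83 to 20.05 in odor GFP- samples, and 10.17 to 10.71 in vehicle GFP+ and 19.19 to 20.51 in vehicle GFP- samples. Markers of immature neurons were lower in GFP+ cells for 4 of 14 in each condition, among them Gap43, a growth-associated protein of neurons that are still extending axons, at -2.59 in odor pools and -2.48 in vehicle pools. The list as a whole was not lower, with a median log2 change of 0.06 in odor pools and 0.02 in vehicle pools. Markers of progenitors were lower for 4 of 8 in odor pools and 5 of 8 in vehicle pools, and those of the sustentacular, or supporting, cells for 0 of 11 in odor pools and 2 of 11 in vehicle pools. The part of these other cells in the receptor results was not tested. The 4 arrays of replicate 5, which are 1 per group, were brighter at the median, with median gene signals of 7.03 to 7.46 beside 6.06 to 6.39 on the rest. Their brightest gene probe sets were lower, at 18.49 to 18.65 beside 18.93 to 19.86 on the rest. These arrays were thus not shifted alike at all signals. The background control probes had medians of 5.14 to 6.34 over the arrays.

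The first question was which of the 65 receptors differed between GFP+ and GFP- cells of the same mice. Receptors changed in both directions, and those with the largest measured changes, Olfr794 and Olfr826, were lower in GFP+ cells, with several GFP+ signals at or below background. In odor pools 6 receptors were higher in GFP+ cells and 17 were lower, after limma on within-pool differences with Benjamini-Hochberg adjustment over all probe sets at 0.05. Over all 22206 probe sets the same test called 2.07% higher and 5.82% lower, 7.89% in all. In vehicle pools 12 of the 65 were higher and 16 lower, where 2.26% of all probe sets were higher and 6.86% lower, 9.11% in all. Among the 1015 odorant receptors outside chromosome 10, 323 were higher and 168 lower in odor pools, and 352 were higher and 154 lower in vehicle pools. The median log2 change of the 65 was -0.09 in odor pools and 0.28 in vehicle pools, beside 0.47 in odor pools and 0.55 in vehicle pools for the receptors elsewhere, and 0.08 in odor pools and 0.09 in vehicle pools for all probe sets. After centring of the arrays on their medians, the median of all probe sets moved to 0.29 in odor pools and 0.33 in vehicle pools and that of the 65 to 0.12 in odor pools and 0.52 in vehicle pools, with 8 receptors higher and 15 lower in odor pools and 15 higher and 15 lower in vehicle pools. Relative to all probe sets the median of the 65 was -0.17 in odor pools and 0.18 in vehicle pools. Centring shifts every probe set of an array alike and so cannot change these values. After quantile normalization, which can, they were -0.12 in odor pools and 0.16 in vehicle pools. The odor median turned to 0.03 without odor replicate 1, 0.05 without odor replicate 4, 0.01 without odor replicate 5 and 0.02 without the dimmest 25% of probe sets, and relative to all probe sets it ran from -0.30 to -0.04 with each pool left out. The vehicle median ran from 0.10 without vehicle replicate 3 to 0.44 without vehicle replicate 2, which is 0.01 to 0.39 relative to all probe sets. No test was made between the receptors of chromosome 10 and those elsewhere.

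**Figure D1:**
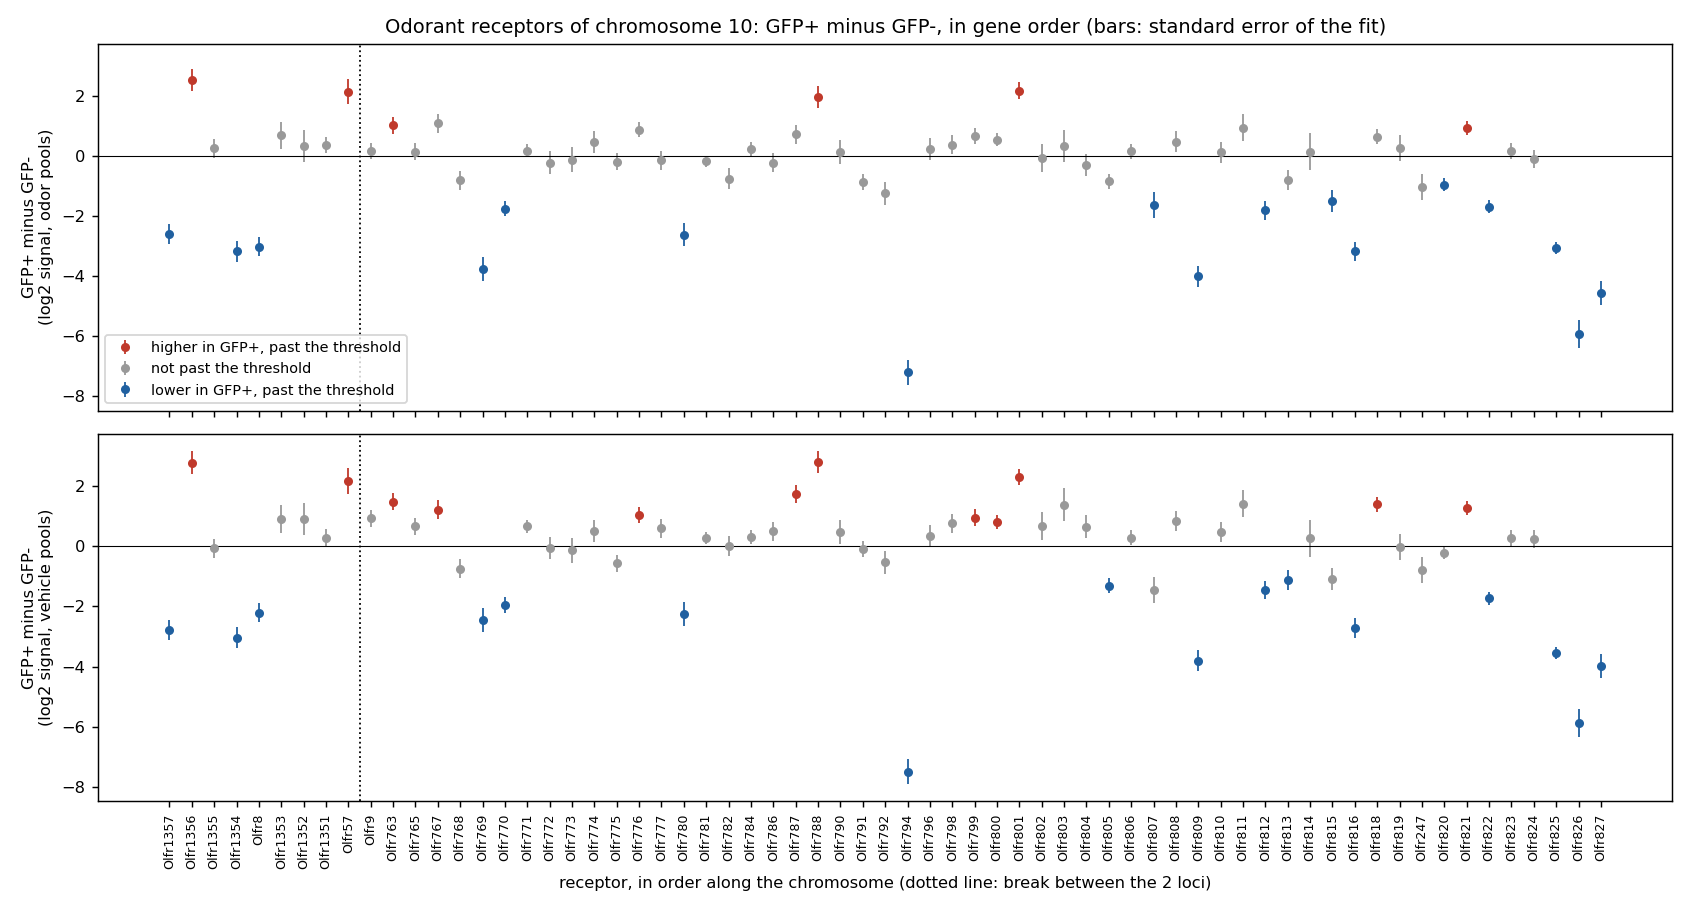
The log2 signal difference GFP+ minus GFP- of each of the 65 receptors, in their order along chromosome 10, in odor pools above and vehicle pools below; points are fitted means over 5 pools, bars are standard errors of the fit, and the dotted line separates the 2 loci. Receptors past the threshold in either direction stand among others near 0, with Olfr794 at -7.20 in odor pools and -7.49 in vehicle pools and Olfr1356 at 2.52 in odor pools and 2.77 in vehicle pools.

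Olfr794 was far lower in GFP+ cells and had the largest measured change of the 65. Its signals were 3.97, 4.92, 3.87, 5.17 and 6.66 in odor GFP+ samples and 12.40, 10.83, 12.02, 11.99 and 13.32 in odor GFP- samples. In vehicle pools they were 5.53, 3.76, 3.62, 4.40 and 4.23 in GFP+ samples and 11.60, 12.12, 10.62, 11.53 and 13.15 in GFP- samples. Every GFP+ sample lay more than 4 units under every GFP- sample of the same condition, and the log2 change was -7.20 in odor pools (SE 0.42, adjusted p = 1.18e-07, limma) and -7.49 in vehicle pools (SE 0.42, adjusted p = 7.61e-08, limma). The GFP+ signal was at or below the array's own background control median on 4 of 5 arrays in each condition, so the size of the fall is bounded by the array. With each GFP+ array held at no less than its background, the log2 change was -6.49 in odor pools and -6.11 in vehicle pools. In vehicle pools the signal was then 69.3-fold lower in GFP+ cells. Values held at background, here and below, come from group means and do not include the spread between pools.

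Olfr809, an odorant receptor of the second locus, was also lower in every pool. It had 5.92, 5.09, 4.56, 4.25 and 7.62 in odor GFP+ samples, against 9.78, 8.49, 9.08, 8.48 and 11.64 in odor GFP- samples. The vehicle pools gave 5.80, 5.20, 4.45, 4.73 and 6.93 in GFP+ samples and 7.75, 9.73, 7.84, 9.68 and 11.13 in GFP- samples. The groups did not overlap in either condition, although the replicate 5 arrays were the brightest in all 4 groups. The log2 change was -4.01 in odor pools (SE 0.35, adjusted p = 4.98e-06, limma) and -3.80 in vehicle pools (SE 0.35, adjusted p = 7.96e-06, limma), with 3 of 5 GFP+ arrays at or below background in each.

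The far end of the second locus held 3 adjacent receptors with large falls, Olfr825, Olfr826 and Olfr827, which share the older receptor family name MOR210 in RefSeq. The first 50 coding bases of Olfr825 and Olfr826 are shown because these genes are among the closest relatives of the set and both were lower in GFP+ cells. They are taken from RefSeq on GRCm38.p6, at chr10:130163275-130163324 for Olfr825 and chr10:130180829-130180878 for Olfr826, both on the minus strand and read 5′ to 3′. Capitals mark the start codon in Olfr825 and the 1 base at which Olfr826 differs from it.
Olfr825: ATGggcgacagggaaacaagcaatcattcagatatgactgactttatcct
Olfr826: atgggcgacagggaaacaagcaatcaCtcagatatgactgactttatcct
Olfr825 had 5.35, 5.66, 6.07, 6.43 and 7.19 in odor GFP+ samples and 8.53, 8.73, 9.43, 8.97 and 10.35 in odor GFP- samples. In vehicle pools it had 5.52, 5.37, 5.24, 5.19 and 7.07 in GFP+ samples and 9.37, 8.92, 8.28, 9.20 and 10.43 in GFP- samples. The groups stood apart in both conditions, by log2 changes of -3.06 in odor pools (SE 0.20, adjusted p = 4.23e-07, limma) and -3.56 in vehicle pools (SE 0.20, adjusted p = 9.29e-08, limma). On 3 of 5 vehicle GFP+ arrays Olfr825 was at or below background, and with these held at background its vehicle change was -3.40.

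Olfr826 had the larger measured fall of these neighbours, though with GFP+ arrays of both at background the vehicle falls cannot be ranked. It had 4.33, 5.11, 5.56, 5.84 and 4.71 in odor GFP+ samples, against 11.11, 10.53, 10.46, 11.13 and 11.97 in odor GFP- samples. Vehicle GFP+ samples had 4.67, 5.82, 5.72, 4.52 and 3.33, and vehicle GFP- samples had 11.10, 10.83, 9.70, 10.61 and 11.22. No GFP+ sample came near a GFP- sample, and the log2 change was -5.93 in odor pools (SE 0.48, adjusted p = 2.41e-06, limma) and -5.88 in vehicle pools (SE 0.48, adjusted p = 2.26e-06, limma). As 3 of 5 GFP+ arrays were at or below background in each condition, the fall with each array held at its background was 41.7-fold in odor pools and 31.5-fold in vehicle pools. Olfr827, the last receptor of the locus, averaged 5.04 ± 0.73 in odor GFP+ cells and 9.60 ± 1.21 in odor GFP- cells (SD, n = 5 each). In vehicle pools its GFP+ signals of 4.98, 4.96, 4.43, 4.99 and 4.37 were at or below background on all 5 arrays, while its GFP- signals were 7.18, 8.57, 8.66, 9.22 and 10.01. With GFP+ arrays held at background, Olfr827 was 8.49-fold lower in vehicle pools. It was 16.5-fold lower in odor pools, where 4 of 5 GFP+ arrays were at or below background. The change as measured had an adjusted p of 4.00e-06 in odor pools and 1.26e-05 in vehicle pools (limma).

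The other MOR210 members, Olfr823 and Olfr824, lie beside Olfr825 and were not past the threshold in either condition. The 5 receptors of the family thus had 3 falls and 0 rises in each condition, with a median log2 change of -3.06 in odor pools and -3.56 in vehicle pools.

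In the first locus the falls were those of Olfr1357, Olfr1354 and Olfr8. Olfr1354 and Olfr8 are neighbours, and their coding starts are shown because the first 50 coding bases are identical and 249 of the 250 bases before them are the same. They lie at chr10:78916842-78916891 and chr10:78955207-78955256 on the plus strand of GRCm38.p6, from RefSeq, and capitals mark the start codon in Olfr1354 alone, since there is no difference to mark in Olfr8.
Olfr1354: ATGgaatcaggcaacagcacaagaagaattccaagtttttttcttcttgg
Olfr8: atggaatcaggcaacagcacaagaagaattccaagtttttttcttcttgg
Olfr1354 had 6.96, 7.32, 6.51, 6.0 and 7.92 in odor GFP+ samples and 8.92, 9.51, 10.18, 10.24 and 11.70 in odor GFP- samples. Vehicle GFP+ samples had 7.15, 7.60, 5.70, 6.06 and 7.98, and vehicle GFP- samples had 9.27, 10.56, 9.36, 9.94 and 10.54. The groups did not overlap, and the log2 change was -3.17 in odor pools (SE 0.35, adjusted p = 4.72e-05, limma) and -3.04 in vehicle pools (SE 0.35, adjusted p = 5.93e-05, limma).

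Olfr8 averaged 4.70 ± 1.18 in odor GFP+ cells and 7.72 ± 1.36 in odor GFP- cells, and 5.22 ± 0.81 in vehicle GFP+ cells and 7.44 ± 1.14 in vehicle GFP- cells (SD, n = 5 each). Its log2 change was -3.03 in odor pools (adjusted p = 2.31e-05, limma) and -2.22 in vehicle pools (adjusted p = 0.000286, limma). On 4 of 5 GFP+ arrays in each condition Olfr8 was at or below background. With these held at background it was 4.27-fold lower in odor pools and 3.45-fold lower in vehicle pools. The sequences of the probes were not used here, so whether RNA of one of these near-identical genes binds the probes of the other was not tested, and the values of both are uncertain to that extent. The same holds for the other close relatives among the 65.

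Receptors higher in GFP+ cells were led by Olfr1356, Olfr788, Olfr801 and Olfr57. Olfr1356, in the first locus, had 10.74, 10.71, 10.94, 10.36 and 11.89 in odor GFP+ samples and 8.28, 7.08, 7.38, 8.65 and 10.63 in odor GFP- samples. In vehicle pools it had 10.93, 9.93, 11.15, 10.38 and 12.16 in GFP+ samples, against 8.15, 8.32, 7.39, 7.96 and 8.84 in GFP- samples. The vehicle groups stood apart, the odor groups overlapped through the bright GFP- array of replicate 5, and all 10 pools were higher in GFP+ cells. Its log2 change was 2.52 in odor pools (SE 0.37, adjusted p = 0.000504, limma) and 2.77 in vehicle pools (SE 0.37, adjusted p = 0.000199, limma), which is 5.75-fold in odor pools and 6.84-fold in vehicle pools.

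Olfr788, in the second locus, had 13.86, 12.49, 14.24, 12.96 and 14.73 in odor GFP+ samples and 11.84, 10.36, 11.86, 11.40 and 13.06 in odor GFP- samples. Vehicle GFP+ samples had 13.61, 13.41, 13.71, 13.94 and 14.44, and vehicle GFP- samples had 9.14, 12.12, 9.97, 11.42 and 12.50. The vehicle groups did not overlap and the odor groups did, and the log2 change was 1.95 in odor pools (SE 0.37, adjusted p = 0.00358, limma) and 2.79 in vehicle pools (SE 0.37, adjusted p = 0.000182, limma). The vehicle differences ran from 1.29 in pool 2 to 4.47 in pool 1, whereas the odor differences ran from 1.56 to 2.39. With the samples of a pool treated as independent, the odor call of Olfr788 was lost (limma adjusted p = 0.0703).

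Olfr801, in the second locus, was higher in GFP+ cells of all 10 pools. It had 10.67, 10.01, 12.11, 11.18 and 12.55 in odor GFP+ samples and 9.08, 7.74, 9.39, 8.87 and 10.62 in odor GFP- samples. In vehicle pools it had 11.37, 10.93, 11.38, 12.13 and 12.01 in GFP+ samples and 7.97, 9.36, 8.79, 9.89 and 10.32 in GFP- samples. The vehicle groups did not overlap, and within-pool differences lay between 1.57 and 3.40 in all 10 pools. The log2 change was 2.17 in odor pools (SE 0.27, adjusted p = 0.000115, limma) and 2.30 in vehicle pools (SE 0.27, adjusted p = 6.14e-05, limma).

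Olfr57, the last gene of the first locus, was more variable. It averaged 9.58 ± 0.92 in odor GFP+ cells and 7.45 ± 0.89 in odor GFP- cells, and 9.46 ± 1.47 in vehicle GFP+ cells and 7.29 ± 1.48 in vehicle GFP- cells (SD, n = 5 each). All 10 pools were higher in GFP+ cells, but vehicle pool 2 only by 0.29 where vehicle pool 3 gave 3.76, and the samples of GFP+ and GFP- cells overlapped in both conditions. Its log2 change was 2.13 in odor pools (adjusted p = 0.00505, limma) and 2.17 in vehicle pools (adjusted p = 0.00386, limma), and both calls were lost when the samples of a pool were treated as independent (limma adjusted p = 0.127 in odor pools and 0.101 in vehicle pools).

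**Figure D2:**
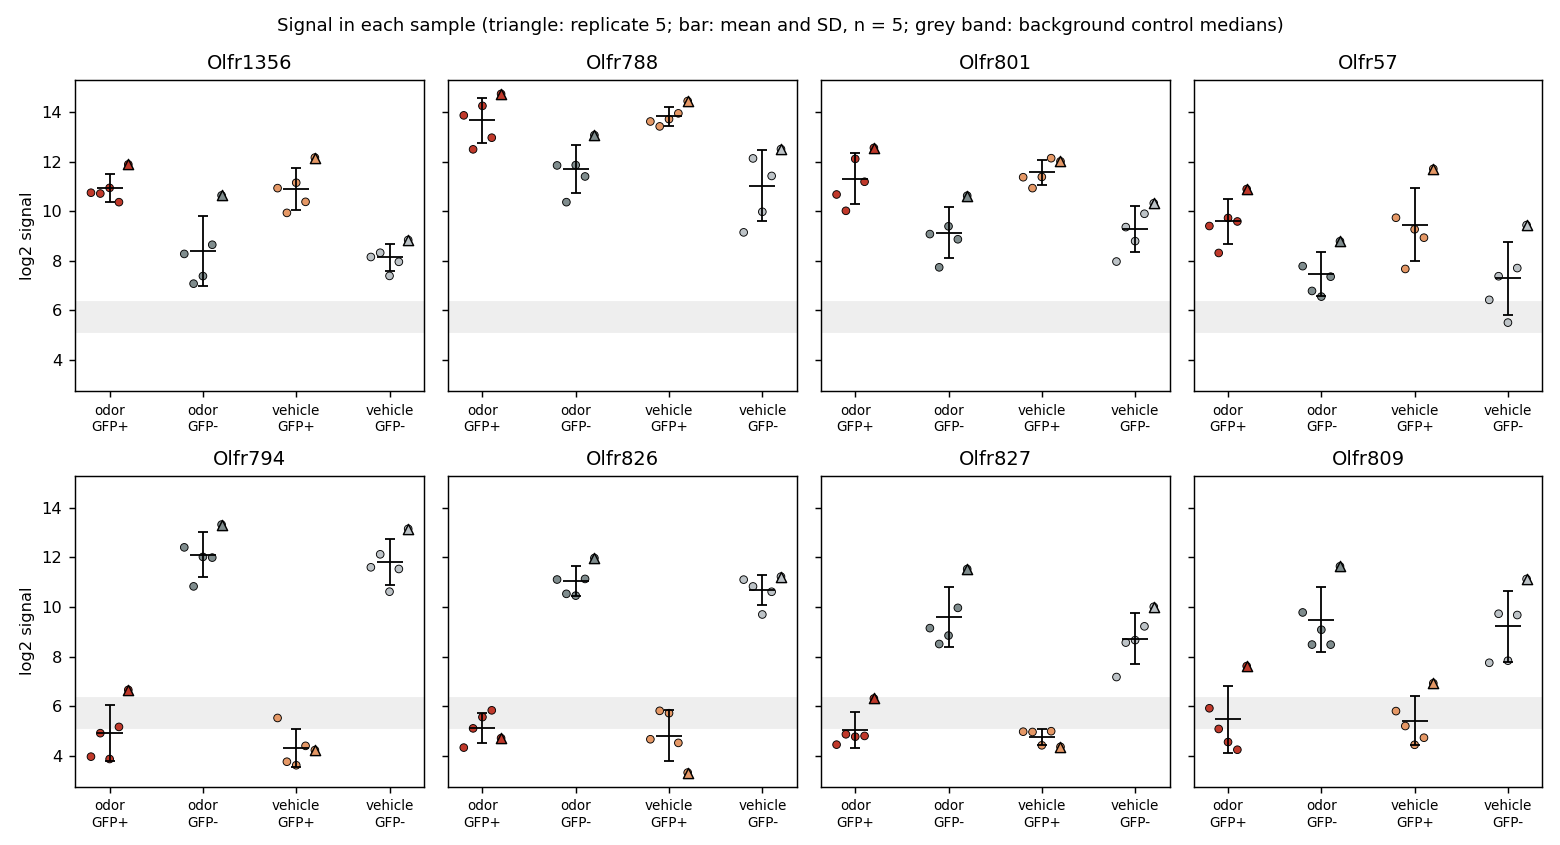
The log2 signal of 8 receptors in every sample, by group, with the mean and SD over 5 samples as bars, replicate 5 as triangles and the range of background control medians over the arrays as a grey band. Olfr1356, Olfr788, Olfr801 and Olfr57 are higher in GFP+ samples, and the GFP+ samples of Olfr794, Olfr826, Olfr827 and Olfr809 lie in or near the grey band, while their GFP- samples lie above it.

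Of the 6 receptors higher in both conditions, Olfr763 and Olfr821 had the smaller rises. Olfr763 had a log2 change of 1.01 in odor pools (adjusted p = 0.0495, limma) and 1.48 in vehicle pools (adjusted p = 0.00375, limma), with 5 of 5 pools higher in each. The odor call for Olfr763 lay at the threshold and was lost under 11 other settings, among them without odor replicate 4 (0.80, adjusted p = 0.244, limma). The vehicle call of Olfr763 was lost with the samples of a pool treated as independent (limma adjusted p = 0.254). Its neighbour Olfr9 is shown with it because the first 50 coding bases are identical, at chr10:128989914-128989963 for Olfr9 and chr10:129011287-129011336 for Olfr763 on the plus strand of GRCm38.p6, from RefSeq. Capitals mark the start codon in Olfr9.
Olfr9: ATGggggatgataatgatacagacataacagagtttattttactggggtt
Olfr763: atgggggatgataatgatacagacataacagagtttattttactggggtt
Olfr9 had a log2 change of 0.16 in odor pools (adjusted p = 0.887, limma) and 0.93 in vehicle pools (adjusted p = 0.0551, limma), so it was not past the threshold in either condition. The signals of Olfr9 ranged from 6.62 to 8.47 in odor GFP+ samples and from 6.32 to 7.86 in odor GFP- samples.

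Olfr821 had 10.67, 9.93, 10.50, 11.08 and 12.39 in odor GFP+ samples and 10.37, 8.28, 10.21, 9.89 and 11.22 in odor GFP- samples. The vehicle samples had 10.99, 10.79, 10.69, 10.92 and 12.23 in GFP+ cells and 9.77, 9.58, 9.16, 9.91 and 10.85 in GFP- cells. All 10 pools were higher in GFP+ cells, by a log2 change of 0.92 in odor pools (adjusted p = 0.0216, limma) and 1.27 in vehicle pools (adjusted p = 0.00195, limma). The odor call was lost under several settings, among them without odor replicate 2 (0.74, adjusted p = 0.108, limma). Olfr822, the neighbour of Olfr821, went the other way by -1.69 in odor pools (adjusted p = 0.000168, limma) and -1.73 in vehicle pools (adjusted p = 0.000126, limma), with 5 of 5 pools lower in each. With the samples of a pool treated as independent, both calls of each were lost. The limma adjusted p was then 0.76 in odor pools and 0.244 in vehicle pools for Olfr821, and 0.128 and 0.101 for Olfr822.

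Such neighbours with calls in opposite directions made up 3 of 63 neighbouring pairs in vehicle pools. Olfr1357 averaged 6.88 ± 1.22 in odor GFP+ cells and 9.48 ± 1.13 in odor GFP- cells (SD, n = 5 each). Its log2 change there was -2.59 (adjusted p = 0.000150, limma), and it lies next to Olfr1356, which was higher in GFP+ cells. In vehicle pools Olfr1357 changed by -2.78 (adjusted p = 7.45e-05, limma), so the neighbours lay 5.56 log2 units apart in change. The third pair was Olfr816 and Olfr818. Olfr816 averaged 6.94 ± 1.07 in odor GFP+ cells and 10.12 ± 1.25 in odor GFP- cells, and 7.06 ± 1.01 in vehicle GFP+ cells and 9.76 ± 0.88 in vehicle GFP- cells (SD, n = 5 each), with log2 changes of -3.18 in odor pools and -2.71 in vehicle pools. Olfr818 averaged 10.12 ± 0.77 in vehicle GFP+ cells and 8.73 ± 0.62 in vehicle GFP- cells (SD, n = 5 each), with a log2 change of 1.38 (adjusted p = 0.00230, limma), while its 0.64 in odor pools did not pass (adjusted p = 0.202, limma). With the samples of a pool treated as independent, the vehicle call of Olfr818 was lost (limma adjusted p = 0.414). Of the 3 pairs, only Olfr1357 and Olfr1356 kept both vehicle calls under every setting run.

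The direction of the calls repeated between the conditions, which hold different mice. All 6 receptors higher in odor pools were also higher in vehicle pools (100% of the odor list and 50% of the vehicle list). Of those lower, 14 were shared (82.4% of the odor list and 87.5% of the vehicle list), and 0 receptors had opposite calls. The log2 changes had the same sign in 56 of 65 receptors, and 24 kept 1 direction in 5 of 5 pools of both conditions. These repeats were not counted over all probe sets or the receptors elsewhere. Whether they are particular to the 65 was thus not tested. Both conditions also entered 1 fit with a shared estimate of the spread, so their calls are not fully independent. Across the 65 receptors the changes correlated at 0.98, as a description, since genes read on the same arrays are not independent. The samples of GFP+ and GFP- cells did not overlap for 13 receptors in odor pools and for 10 in vehicle pools, where 5.07% of all probe sets in odor pools and 4.74% in vehicle pools had groups that did not overlap.

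The remaining 34 receptors passed in neither condition. Their log2 changes ran from -1.24 to 0.94 in odor pools and from -0.79 to 1.41 in vehicle pools, with standard errors of 0.19 to 0.62. The smallest vehicle changes among receptors above background were those of Olfr819, Olfr772 and Olfr1355. Olfr819 had a log2 change of 0.26 in odor pools and -0.03 in vehicle pools (95% confidence interval -0.95 to 0.88), Olfr772 of -0.23 in odor pools and -0.06 in vehicle pools (-0.88 to 0.76), and Olfr1355 of 0.24 in odor pools and -0.07 in vehicle pools (-0.74 to 0.60). These intervals leave room for a change in either direction, and the pools of each went both ways. Olfr768 was at or below background on all 20 arrays and Olfr782 on 18 of 20, so no fold is given for either.

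Signal over background limited what could be seen in part of the set. On every array 46 of the 65 receptors were above the background control median, and 3 were at or below it on at least 10 arrays. Of the 16 receptors lower in vehicle pools, 9 were at or below background on at least 1 GFP+ array and 7 on at least 3 of 5 vehicle GFP+ arrays, while the 12 that were higher were above it on every array.

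**Figure D3:**
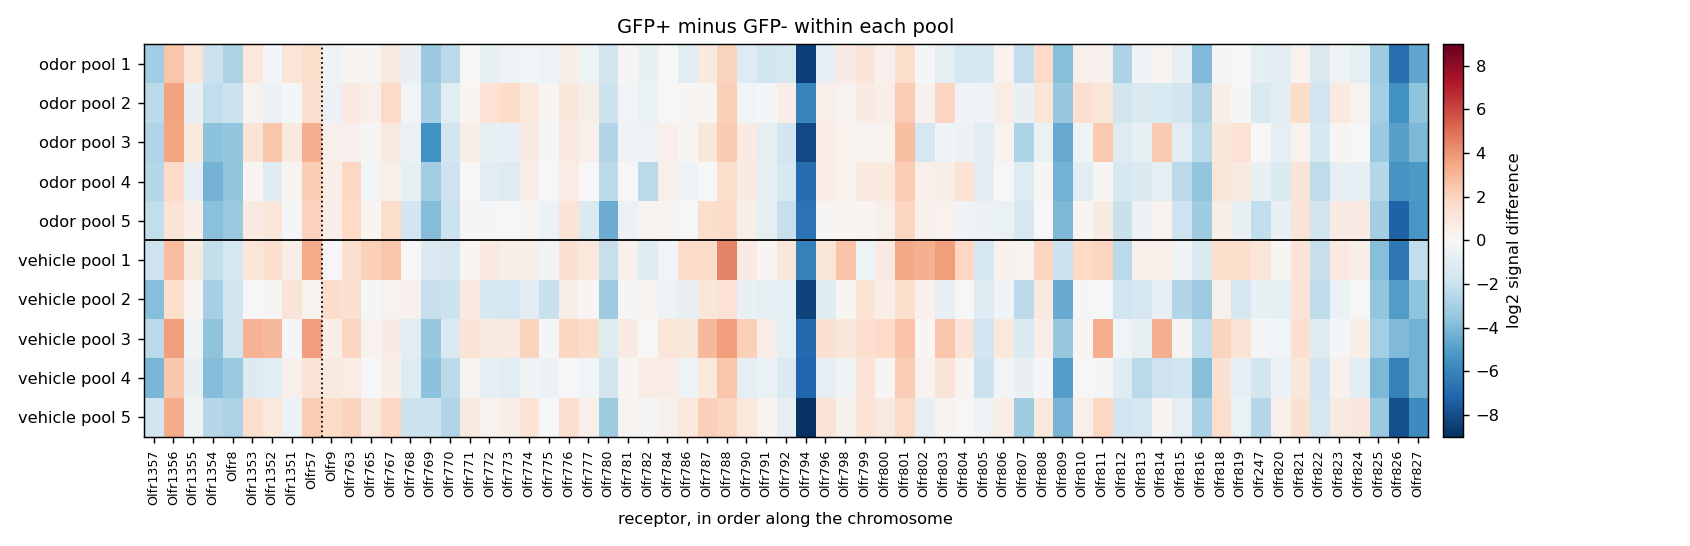
The log2 signal difference GFP+ minus GFP- of each receptor (columns, in chromosome order, loci split by the dotted line) in each pool (rows, odor pools above the line and vehicle pools below), red for higher and blue for lower in GFP+ cells. The blue columns of Olfr794, Olfr809, Olfr826 and Olfr827 and the red columns of Olfr1356 and Olfr801 run through all 10 pools, while vehicle pools 1 and 3 are redder and vehicle pools 2 and 4 bluer in many other columns.

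The pools themselves shifted as wholes. The median difference over the 65 receptors was -0.42, 0.05, -0.07, -0.35 and -0.0004 in odor pools 1 to 5. It was 0.54, -0.60, 0.60, -0.51 and 0.32 in vehicle pools 1 to 5, a wider spread than among the odor pools. Vehicle pool 1 contains the array that correlated least with its group, the GFP- array of replicate 1, and vehicle pool 2 another such array, the GFP+ array of replicate 2. Without vehicle pools 1 and 2 and odor pool 2, a choice made after seeing the data that kept the vehicle GFP- array of replicate 3 (median correlation with its group 0.959), 5 receptors were higher and 21 lower in odor pools, and 11 higher and 18 lower in vehicle pools. Replicate 5 arrays were kept at 0.9559 in odor GFP-, 0.9585 in vehicle GFP+ and 0.9601 in vehicle GFP- samples. The odor GFP- array of replicate 2, which was left out, stood above these at 0.9635.

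The older family names in RefSeq, which group receptors by sequence, divided the calls unevenly. The 63 receptors with a single family name fell into 16 families. MOR114, with 13 members, had 0 higher and 4 lower in odor pools and 2 higher and 4 lower in vehicle pools, and it includes Olfr794 and Olfr769. MOR110, with 9 members, had 1 higher and 1 lower in odor pools and 2 higher and 2 lower in vehicle pools. MOR111, with 8 members including Olfr787 and Olfr788, had 1 higher and 0 lower in odor pools and 3 higher and 0 lower in vehicle pools, at median log2 changes of 0.40 in odor pools and 0.85 in vehicle pools. MOR113, with 5 members including Olfr816 and Olfr822, had 0 higher and 3 lower in odor pools and 0 higher and 2 lower in vehicle pools, at medians of -1.51 in odor pools and -1.09 in vehicle pools. Families are small, their members share sequence, and no test was made of a family as a whole.

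**Figure D4:**
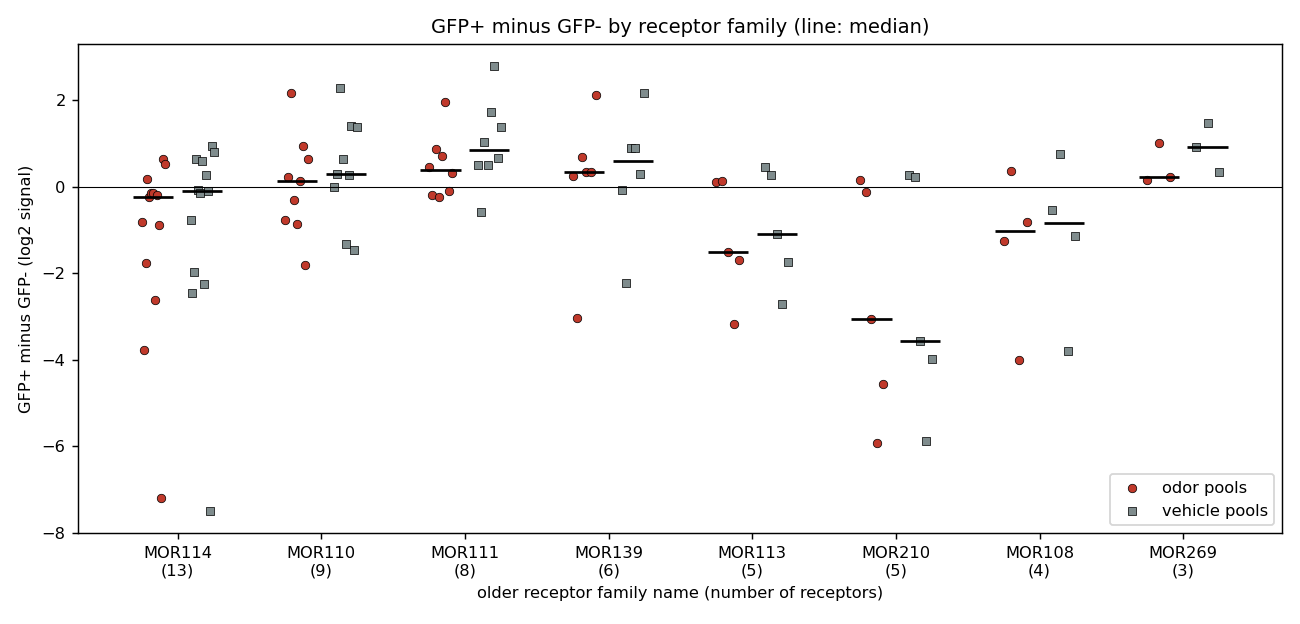
The log2 signal difference GFP+ minus GFP- of the receptors of each older family with at least 3 members, odor pools as circles left of vehicle pools as squares, with the median as a line. MOR111 has medians above 0 and MOR113 and MOR210 below 0 in both conditions (also after quantile normalization or centring), and MOR114 and MOR139 hold receptors on both sides.

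Receptors were also compared by the likeness of their coding starts. The first 50 coding bases were compared over 1128 pairs of the 48 receptors whose RefSeq window reaches the start codon, and the median pair shared 21 of 50 bases. In 11 pairs at least 45 bases were shared, 9 of them within a family. These pairs differed in change by a median of 1.00 in odor pools and 0.98 in vehicle pools, where all pairs differed by 1.35 in odor pools and 1.43 in vehicle pools. In 4 of the 11 (36.4%) the changes had opposite signs in both conditions, beside 41.1% of all pairs, and Olfr792 and Olfr798 are shown as the closest of these by sequence. They lie at chr10:129540539-129540588 on the plus strand and chr10:129626010-129626059 on the minus strand of GRCm38.p6, from RefSeq, and capitals mark the start codon in Olfr792 and the 2 bases that differ in Olfr798.
Olfr792: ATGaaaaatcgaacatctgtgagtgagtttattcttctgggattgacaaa
Olfr798: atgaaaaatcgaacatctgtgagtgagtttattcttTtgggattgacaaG
Olfr792 had a log2 change of -1.24 in odor pools and -0.53 in vehicle pools, and Olfr798 of 0.37 in odor pools and 0.76 in vehicle pools, and neither passed the threshold in either condition.

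The RefSeq windows at the gene starts were searched for letters that known factors of sensory neurons bind. Windows of 300 bases were found for 52 of the 65 receptors, and in 48 of them the start codon stands after 250 bases, so the bases before it lie upstream of the coding sequence and are not known to reach a transcription start. All 300 bases were searched, so in these 48 windows the first 50 coding bases were included and a match may lie in them. The homeodomain letters TAATTA were in 10 of 52 windows on either strand (19.2%), beside 18.6% of 944 odorant receptor windows and 5.29% of all 32851 windows, and TAATTG, which shares TAATT with it, in 16 of 52 (30.8%, beside 23.2% and 8.0%). Of the 10 windows with TAATTA, 1 has no start codon after 250 bases. The letters CCCNNGGG, bound by Olf/Ebf factors, were in 1 of 52 windows (1.92%, beside 3.07% and 13.7%), that of Olfr1357, which is 1 of the 4 windows without a start codon after 250 bases and so may not lie before the coding start. A match is a description of these windows only.

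The second question was whether the odor changed how receptors divided between GFP+ and GFP- cells. No receptor of chromosome 10 passed the threshold for a difference between odor and vehicle pools, nor did any of the 22206 probe sets (0% called, limma). Before adjustment 3 of the 65 had p under 0.05 (4.62%), beside 41 of the 1015 receptors elsewhere (4.04%) and 1.21% of all probe sets. Every adjusted p was 1.00 after rounding. The difference was negative, toward GFP- cells in odor pools, for 53 of the 65, with a median of -0.30 beside -0.12 for receptors elsewhere and 0.01 for all probe sets. It was negative for 618 of the 1015 receptors elsewhere and 10839 of the 22206 probe sets. The median of the 65 remained negative whichever pool was left out, from -0.45 without vehicle replicate 4 to -0.10 without vehicle replicate 3. The 65 are read on the same arrays and are not independent. Their median GFP+ minus GFP- difference ran from -0.60 to 0.60 over vehicle pools and from -0.42 to 0.05 over odor pools. Pools of 1 condition thus differed by more than the median of -0.30. Immune cell markers had a median of 0.44 in the same difference and of -0.70 for odor against vehicle in GFP- cells, with 0 of 16 past the threshold in each (limma), and their part in the receptor values was not tested. The 95% confidence intervals over the 65 reached from -2.71 to 1.74, so differences of several fold in either direction were not detectable for some of them.

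**Figure D5:**
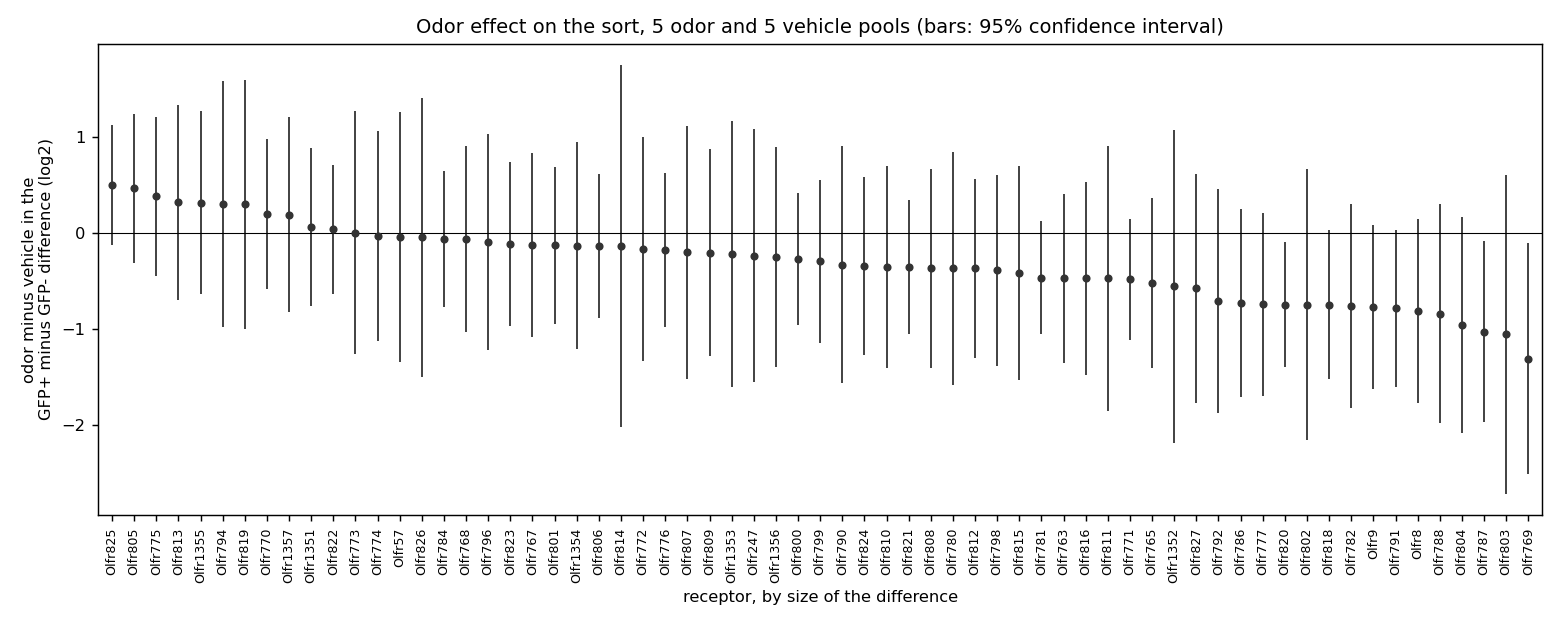
The difference between odor and vehicle pools in the GFP+ minus GFP- log2 signal of each receptor, ordered by size, with 95% confidence intervals from 5 pools each. Of the 65 points 53 lie below 0, and the intervals of 3, Olfr820, Olfr787 and Olfr769, do not reach 0 before adjustment.

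Olfr820 had the smallest p of these receptors. Its signals were 11.53, 10.94, 11.55, 11.49 and 13.07 in odor GFP+ samples and 12.58, 11.95, 12.37, 12.72 and 13.75 in odor GFP- samples. In vehicle pools it had 11.46, 11.91, 11.57, 12.19 and 13.49 in GFP+ samples and 11.34, 12.78, 11.84, 12.69 and 13.06 in GFP- samples. GFP+ was below GFP- in 5 of 5 odor pools and in 3 of 5 vehicle pools, and the log2 change was -0.96 in odor pools (adjusted p = 0.0107, limma) and -0.21 in vehicle pools (adjusted p = 0.701, limma). The difference between them was -0.74 (95% confidence interval -1.40 to -0.09), with an unadjusted p of 0.0282 and an adjusted p of 1.00 (limma). The call of Olfr820 in odor pools was lost after centring of the arrays (-0.75, adjusted p = 0.0729, limma). It was also lost without odor replicate 4 (-0.89, adjusted p = 0.0594, limma) and with the samples of a pool treated as independent (adjusted p = 0.547, limma).

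Olfr787, of family MOR111, had 10.73, 9.76, 11.42, 10.31 and 13.14 in odor GFP+ samples and 9.92, 9.55, 10.41, 10.36 and 11.57 in odor GFP- samples. Vehicle GFP+ samples had 11.02, 11.63, 11.86, 12.03 and 13.21, and vehicle GFP- samples had 9.39, 10.62, 8.93, 11.06 and 11.05. It was higher in GFP+ cells of vehicle pools by 1.74 (adjusted p = 0.00179, limma) and not past the threshold at 0.71 in odor pools (adjusted p = 0.259, limma). The difference was -1.02 (95% confidence interval -1.96 to -0.09, adjusted p = 1.00, limma), so the calls in 1 condition only are not shown to differ between the conditions. The vehicle call of Olfr787 was lost with the samples of a pool treated as independent (limma adjusted p = 0.114).

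Olfr769 was lower in GFP+ cells in both conditions. It averaged 5.50 ± 1.12 in odor GFP+ cells and 9.26 ± 0.91 in odor GFP- cells, and 6.26 ± 1.46 in vehicle GFP+ cells and 8.72 ± 1.25 in vehicle GFP- cells (SD, n = 5 each). The log2 change was -3.77 in odor pools and -2.46 in vehicle pools, with a difference of -1.31 (95% confidence interval -2.51 to -0.10, unadjusted p = 0.0353, adjusted p = 1.00, limma). It was at or below background on 2 of 5 odor GFP+ arrays and 1 of 5 vehicle GFP+ arrays, and with these held at background the changes were -3.37 in odor pools and -2.21 in vehicle pools. Next by p were Olfr791 at -0.79, Olfr818 at -0.75 and Olfr9 at -0.77, none with an interval that excluded 0.

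In all, 11 receptors were called in 1 condition only, 8 in vehicle pools and 3 in odor pools, and none of these passed the test of the difference. Those in vehicle pools only were Olfr767, Olfr776, Olfr787, Olfr799, Olfr800, Olfr805, Olfr813 and Olfr818, of which Olfr805 and Olfr813 were lower and the others higher. Those in odor pools only were Olfr807, Olfr815 and Olfr820, all lower. Olfr807 had nearly the same change in both, -1.65 in odor pools (adjusted p = 0.0306, limma) and -1.45 in vehicle pools (adjusted p = 0.0548, limma).

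Odor and vehicle were also compared within each sorted fraction. In GFP+ cells 0 of the 65 receptors and 0% of all probe sets passed the threshold, and 0 of the 65 had an unadjusted p under 0.05 (limma). The change was negative for 44 of the 65, with a median of -0.13, but this median turned to 0.07 without odor replicate 2 and to 0.15 without vehicle replicate 5, where the median of all probe sets moved to 0.08 and 0.21. Relative to all probe sets the median of the 65 was -0.16, and it ran from -0.33 to -0.01 with each pool left out. The smallest p belonged to Olfr782 and Olfr768, which lie at background, and then to Olfr803 and Olfr787. Olfr803 averaged 9.70 ± 1.18 in odor GFP+ cells and 10.51 ± 0.72 in vehicle GFP+ cells (SD, n = 5 each), with a log2 change of -0.81 with a 95% confidence interval from -2.0 to 0.38.

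In GFP- cells 0 of the 65 and 0% of all probe sets passed, and 0 of the 65 had an unadjusted p under 0.05 (limma). The change was positive for 52 of the 65, with a median of 0.15, which turned to -0.22 without odor replicate 5 and to -0.05 without vehicle replicate 3, where the median of all probe sets moved to -0.17 and -0.03. Relative to all probe sets the median of the 65 was 0.14, and it ran from -0.04 to 0.36 with each pool left out. Olfr827 averaged 9.60 ± 1.21 in odor GFP- cells and 8.73 ± 1.04 in vehicle GFP- cells (SD, n = 5 each), with a log2 change of 0.87 (95% confidence interval -0.50 to 2.25). Olfr788 averaged 11.70 ± 0.97 in odor GFP- cells and 11.03 ± 1.43 in vehicle GFP- cells (SD, n = 5 each), with a log2 change of 0.67 (95% confidence interval -0.80 to 2.15). The odor and vehicle samples of all 65 receptors overlapped in both fractions, as did those of nearly all probe sets, of which 0.104% in GFP+ cells and 0.0901% in GFP- cells did not overlap.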

How the data were processed

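Expression was measured on Affymetrix Clariom S mouse arrays in 20 samples, from 50 to 100 ng of RNA per the labels' protocols. The authors deposited log2 signals for each probe set, made with Affymetrix Expression Console per the submitters' processing notes. For its version, background correction and normalization the sources used here give nothing, and the values were taken without further scaling. Of 28846 rows, 6640 control rows were left out, and 22206 gene probe sets were tested without a filter on dim ones, of which 19572 have 1 gene symbol, 0 several and 2634 none. Receptor names were matched by Entrez ID to RefSeq (GRCm38.p6), which changed 0 of 65 symbols. The assembly behind the array annotation is not given, so RefSeq served for names, order and sequences only.

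Tests used limma 3.58.1 in R 4.3.3 (lmFit, eBayes), with Benjamini-Hochberg adjustment over all 22206 probe sets at 0.05. The differences GFP+ minus GFP- of all 10 pools entered 1 fit, since the labels put both fractions of a number in the same mice. Odor and vehicle were compared within each fraction on 10 samples without a block. The code was tested on simulated data. P-values rest on 5 pools a group, and the labels do not say whether pools were sorted on separate days.

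The labels number odor and vehicle samples alike. Among GFP+ samples, deviations from the group mean correlated between equal numbers at 0.25, 0.52, 0.35, 0.16 and 0.86. Without the bright arrays of replicate 5, numbers 1 to 4 stood at -0.05, 0.36, 0.37 and 0.25. In GFP- cells the values were 0.14, -0.38, 0.28, 0.20 and 0.84, and without replicate 5 they were -0.18, -0.57, 0.17 and 0.44. In the differences GFP+ minus GFP- the values ran from -0.48 to 0.21. The printed values are from the fits without a block on the number, and the fit with it was an alternative.

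The receptors, the marker lists and the tests were chosen with earlier results of these data known. Named were S100a5 and Omp; the 6 highest and 6 lowest receptors of the sort in vehicle pools and the 3 and 3 in odor pools, among those past the threshold with 5 of 5 pools in 1 direction; 3 called in 1 condition only; 3 with the smallest change; the smallest p for odor (6 for the difference, 4 per fraction); and 3 pairs of opposite neighbours. Pairs by protein identity could not be formed, so pairs by coding start were chosen after their values were seen, as were other receptors named to complete a list. Background is the median of 23 background control probe sets on each array. Alternatives were quantile normalization, centring, a filter on the dimmest 25%, an intensity trend, replicate 5 as a term or left out, each pool left out, and fits with and without a block.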

Additional observations from a re-analysis of the deposited data

Results flagged for a closer look

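In 14 of 116 groups of 5 samples checked (12.1%, where chance gives about 5%), 1 sample stood far from the other 4, and 12 of these were arrays of replicate 5. In odor GFP+ cells the replicate 5 signal was the highest for Olfr1357 at 8.98 (others 6.15 to 6.95), for Olfr820 at 13.07 (10.94 to 11.55) and for Olfr827 at 6.31 (4.45 to 4.87). In odor GFP- cells it was the highest for Olfr763 at 8.08 (6.18 to 6.71), Olfr768 at 6.05 (4.03 to 4.5), Olfr791 at 11.55 (8.79 to 9.59) and Olfr822 at 9.99 (8.42 to 8.75). In vehicle GFP+ cells it was the highest for Olfr763 at 9.91 (7.34 to 8.07), Olfr821 at 12.23 (10.69 to 10.99) and Olfr825 at 7.07 (5.19 to 5.52). For Omp, a marker of mature sensory neurons, replicate 5 was the lowest, at 18.29 in odor GFP+ cells (19.50 to 19.65) and 18.24 in odor GFP- cells (19.24 to 19.57). The remaining flags were low values on arrays of replicate 2: Olfr772 at 5.88 in odor GFP- cells (9.0 to 10.17) and Olfr803 at 9.28 in vehicle GFP+ cells (10.60 to 11.13). The vehicle GFP+ array of replicate 2 had a median correlation of 0.954 with its group and the odor GFP- array of replicate 2 one of 0.964, beside 0.897 for the lowest array, vehicle GFP- replicate 1. No receptor had all its odor pools on one side of 0 and all its vehicle pools on the other (0 of 65).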

How the results depend on the processing

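With GFP+ and GFP- samples of a pool treated as independent (no replicate block), 2 receptors in place of 6 were higher in odor pools and 3 in place of 12 in vehicle pools, and 12 in place of 17 were lower in odor pools and 11 in place of 16 in vehicle pools. Without both pools numbered 5 the counts were 4 higher and 15 lower in odor pools and 8 higher and 14 lower in vehicle pools. Leaving out each replicate in turn gave 4 to 9 higher and 14 to 19 lower in odor pools, and 8 to 13 higher and 15 to 17 lower in vehicle pools. Under every setting run, Olfr1356 and Olfr801 were called higher in odor pools and 12 receptors lower, and Olfr1356, Olfr788 and Olfr801 were called higher in vehicle pools and 11 receptors lower. With the replicate number as a block, 0 receptors passed in each of the 3 comparisons of odor with vehicle, as in every other setting. No named result changed sign past the threshold, and over all named results and settings 2585 values kept their call, 12 gained it and 37 lost it. The values kept include those of the 3 comparisons of odor with vehicle, where no probe set passed under any setting. They also include values that changed sign without a call. Every gain and loss was in the comparisons of GFP+ with GFP- cells, so the count overstates how stable those calls were. Receptors at or near background have a bounded fall, and the depth of signal there limits what can be ranked.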
